A study of Rattus norvegicus with 90 samples.

Results

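Liver RNA of pregnant Sprague-Dawley rats given 30 mg/kg/d of Nafion byproduct 2 (NBP2), a fluorinated sulfonic acid, was compared with that of control dams at gestation day 18 (GD18). The libraries were those labelled maternal liver, GD18, and a dose of 30 mg/kg/d (4 dams) or 0 mg/kg/d (6 dams), 10 of the 90 libraries of the series. Every dam was time-mated, about 90 days old on purchase, and dosed by mouth from GD14, with necropsy on GD18 a few hours after the last dose. Control dams are labelled only as controls at 0 mg/kg/d, and the vehicle is not given in the sources used here. Each library is 1 dam. The dams belong to study blocks 140 (3 controls, treated dams 2082 and 2083) and 143 (3 controls, treated dams 2127 and 2128). TempO-Seq reads each gene at 1 short probe site, and the submitters attenuated the most abundant transcripts, so levels were compared between dams and not between genes.

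The liver clears foreign compounds by oxidation, conjugation and export, and the nuclear receptors CAR and PXR switch on many of the enzymes involved. PPAR-alpha, a receptor for fatty acids, raises the genes of fatty acid oxidation in mitochondria and peroxisomes, and many perfluorinated acids activate it in rodents. The same organ removes thyroid hormone, stores retinoids, makes plasma proteins and keeps a circadian clock, and in late pregnancy it carries a changed load of steroids and lipids.

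The tissue label was checked against hepatocyte markers. Of 18 such markers 16 are in the file and each had counts in all 10 libraries, with a summed level of 32211 to 44903 CPM in controls and 33758 to 42801 CPM in treated dams (CPM, counts scaled to each library's total). Total counts ran from 3667343 to 6409501 in controls and from 3641732 to 6149684 in treated dams. Olfactory, vomeronasal and taste receptor genes, which liver is not known to express, took 3221 to 4360 CPM in the 3 controls and 4443 to 5540 CPM in the 2 treated dams of block 140, where the groups do not overlap. In block 143 they took 25.2 to 60.0 CPM in controls and 27.3 to 49.2 CPM in treated dams, which overlap. With the receptor share as a covariate 56 of the 63 calls below held, and those of Acadm, Ugt2a3, Clpx, Prkab1, Hbb-bs, LOC100134871 and Hba-a2 ended. Block was a term of the fit, and both doses are in both blocks. Control ranges given below pool the 2 blocks.

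Treated dam 2082 stood apart from the other 9 libraries. Over the 2873 genes whose mean log2 CPM was 5 or more, its mean correlation with the other libraries of its block was 0.796, against 0.911 to 0.918 for the other 4 of that block and 0.950 to 0.956 in block 143. It was the lowest of the 10 libraries for 55.6% of these genes and the highest for 16.3%. Its TMM scaling factor was 1.28, against 0.915 to 1.10 in the other 9. What set it apart was not tested. Each result below is therefore also given without dam 2082 where the call ended, a choice made after the data were seen.

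Of 13783 genes tested, 63 (0.457%) passed an adjusted p of 0.05, 48 higher (0.348%) and 15 lower (0.109%) at 30 mg/kg/d, and 1422 (10.3%) had an unadjusted p under 0.05. The fit drew its spread from all 30 maternal GD18 libraries, lower doses included. With the 10 compared libraries alone 18 genes were called, 17 of them among the 63. All treated libraries lay beyond all control libraries for 34 of the 48 rises and 13 of the 15 falls, where 0.588% and 0.544% of all genes did so. The median log2 fold change of all genes tested was 0.05, with 7662 above 0. Together the 48 rises took 0.747% to 1.10% of the normalised counts in controls and 2.19% to 3.19% in treated dams, a description only, since this contrast chose them. Of the treated dams, 2127 was highest for 23 of the rises and lowest for none, 2082 was highest for 19 and lowest for 15, and 2083 was lowest for 17. Without dam 2082, 32 rises and 4 falls were still called and 13 other genes were added. Without dam 2127 only 19 rises and 2 falls of the 63 were still called. All 63 had the same sign in both blocks, a description only, since the same dams chose them. Alone, block 140 called 13 genes and block 143 called 29. In each of the 10 fits that left out 1 library, 19 genes, all of them rises, were called. In bulk tissue, fewer cells of a type and less RNA per cell cannot be told apart. Below, CPM are scaled with TMM factors, errors of log2 fold changes are SE, genes that were not called and are neither among the smallest p of a list nor near misses were chosen after their values were seen, and treated dams are listed in the order 2082, 2083, 2127 and 2128.

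**Figure D1:**
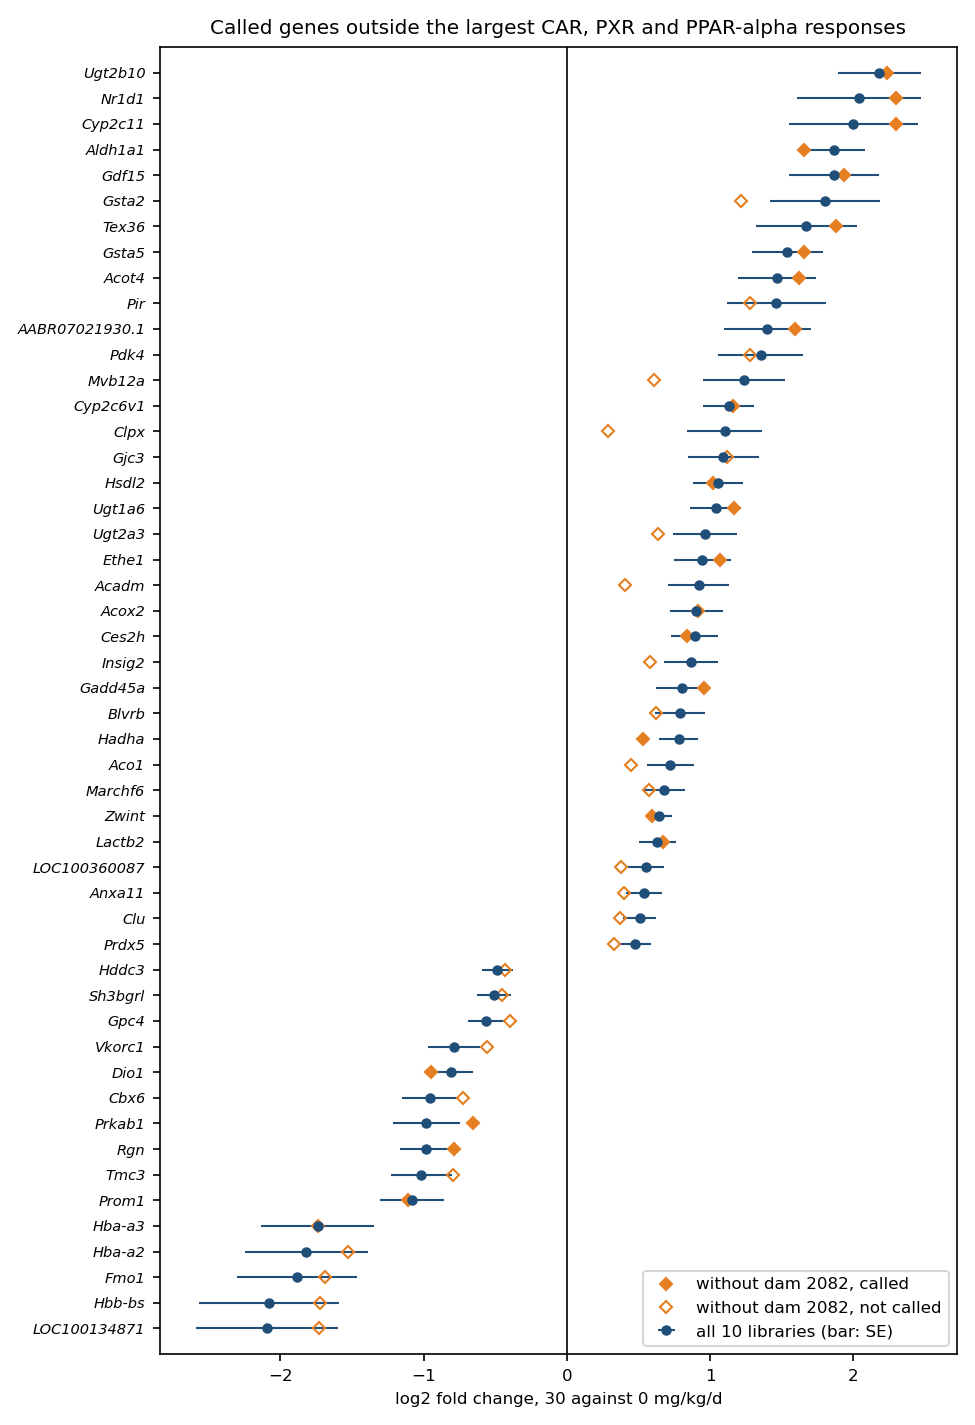
Log2 fold change between 30 and 0 mg/kg/d for the 50 called genes outside the 13 largest known CAR, PXR and PPAR-alpha responses. Circles with SE bars hold all 10 compared libraries, within the fit of 30 maternal GD18 libraries. Diamonds give the value without dam 2082, filled where still called. The 35 rises and 15 falls keep their signs without that dam, and 23 of the 50 stay called.

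Of 24 tested CAR and PXR targets 9 rose and none fell, with a median log2 fold change of 1.10, and 8 rose without dam 2082. Ephx1, which hydrolyses epoxides, rose from 96.3 to 413 CPM on average. Cyp3a23/3a1, a rat P450 induced through PXR, held 101 to 165 CPM in the controls (median 141) and 2845, 2151, 4965 and 2461 CPM in the treated dams. No treated value came near the control range. Cyp2b2 was uneven: dam 2082 held 29.5 CPM and dams 2083, 2127 and 2128 held 1284, 1665 and 636 CPM, against 24.4 CPM in the highest control. Dam 2082 thus lay just above the pooled control range for this gene, but well above the controls of its own block (0.317, 1.87 and 0.149 CPM). The Cyp3a23/3a1 level of dam 2082 was within the range of the other treated dams. Counts of Cyp2b2 and Cyp3a23/3a1 are fractional in all 30 maternal GD18 libraries, so their division between similar genes is uncertain. Among targets not called were Cyp3a9 1.08 ± 0.27 (adjusted p 0.0707), with groups that do not overlap, and Cyp2b3 −0.82 ± 0.20 (adjusted p 0.0506), which pointed the other way.

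Cyp3a23/3a1 and Gdf15 were the only 2 of the 51 called genes matched whose promoter held a direct repeat of the kind nuclear receptors bind, and both are shown for that reason. Promoters of 300 bases, 250 before to 50 after the start, were taken from RefSeq on GRCr8, a later build than the rn6 of the deposited file, and matched 51 of the 63 (49 by symbol, 2 by an older one). In the first, on the minus strand at chr12:14398754-14399053, capitals mark the reverse-strand match to 2 copies of AGTTCA spaced by 3 bases (an arrangement known for PXR) at −144 to −130 from the start. In the second, on the plus strand at chr16:18838186-18838485, capitals mark 2 copies of AGGNCA spaced by 1 base (an arrangement known for PPAR, here with 1 free base, N, in each copy) at −72 to −60.
Cyp3a23/3a1: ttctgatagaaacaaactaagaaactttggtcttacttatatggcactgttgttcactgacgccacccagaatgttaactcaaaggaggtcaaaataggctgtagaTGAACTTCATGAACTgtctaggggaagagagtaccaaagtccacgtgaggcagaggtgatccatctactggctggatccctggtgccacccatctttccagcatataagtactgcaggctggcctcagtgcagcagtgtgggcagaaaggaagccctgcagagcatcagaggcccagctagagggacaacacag
Gdf15: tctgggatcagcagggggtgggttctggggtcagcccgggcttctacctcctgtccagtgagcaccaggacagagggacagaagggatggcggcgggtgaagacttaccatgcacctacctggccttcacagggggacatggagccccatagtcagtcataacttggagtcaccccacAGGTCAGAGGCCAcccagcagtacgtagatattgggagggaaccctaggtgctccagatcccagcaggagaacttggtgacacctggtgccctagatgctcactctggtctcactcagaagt

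Both strands were searched without mismatch. The AGTTCA repeat with spacer 3 was in 0.00598% of all 33469 promoters (2 of them) and the AGGNCA repeat with spacer 1 in 0.415%. The stricter AGGTCA repeat with spacer 1, whose matches are also matches of the AGGNCA repeat, was in 0.0538%, and the AGTTCA repeat with spacer 4 in 0.012%. Neither of these last was in a matched promoter of a called gene. The antioxidant element core TGACNNNGC was in 13.5% of 37 promoters of rises, 7.14% of 14 of falls and 14.0% of 9826 promoters of tested genes. The xenobiotic element core GCGTG was in 40.5%, 50.0% and 43.3%. A match describes the letters of this window and nothing more.

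Beyond the P450s, the conjugating enzymes that attach glucuronic acid or glutathione rose in part. Of 32 tested members 5 rose and none fell, with a median log2 fold change of 0.42 against 0.05 for all genes, and 3 rose without dam 2082. Ugt2b10, a glucuronosyltransferase, held 233 to 372 CPM in the controls (median 255) and 985, 1105, 1638 and 1303 CPM in the treated dams. It rose by 2.18 ± 0.29 (adjusted p 3.68e-05), the groups did not overlap, and the call held when any library was left out. Ugt1a6, which conjugates phenols, held 237 to 324 CPM in the controls (median 261) and 408, 497, 804 and 488 CPM in the treated dams. It rose by 1.04 ± 0.18 (adjusted p 0.00155) with no overlap. Gsta5, an alpha-class glutathione transferase, held 409 to 1240.1 CPM in the controls (median 557) and 1279, 2011, 2358 and 2056 CPM in the treated dams. It rose by 1.54 ± 0.25 (adjusted p 0.000665), although the highest control came close to dam 2082. Gsta2, of the same class, held 321 to 525 CPM in the controls (median 407) and 3862, 1381, 795 and 721 CPM in the treated dams. The rise of 1.80 ± 0.38 (adjusted p 0.0223) leaned on dam 2082, without which it was 1.21 (adjusted p 0.197). Ugt2a3 held 26.0 to 38.4 CPM in the controls (median 31.9) and 116, 77.0, 40.7 and 32.4 CPM in the treated dams, so that only the block 140 dams lay well above the controls. It was called at 0.96 ± 0.23 (adjusted p 0.0454) and stood at 0.64 (adjusted p 0.328) without dam 2082, with an adjusted p of 0.0579 under the receptor covariate. Next in the list, not called, was Mgst2 0.64 ± 0.16 (adjusted p 0.0591). Counts of Ugt2b10, Ugt1a6, Gsta5 and Gsta2 are partly fractional in the file, so values of these gene families are uncertain where reads fit several members. In the 10 fits that left out 1 library, the calls ended for Ugt1a6 in 1 (adjusted p up to 0.108 without dam 2127), Gsta2 in 6 (adjusted p up to 0.197 without dam 2082) and Ugt2a3 in 8 (adjusted p up to 0.328 without dam 2082).

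**Figure D2:**
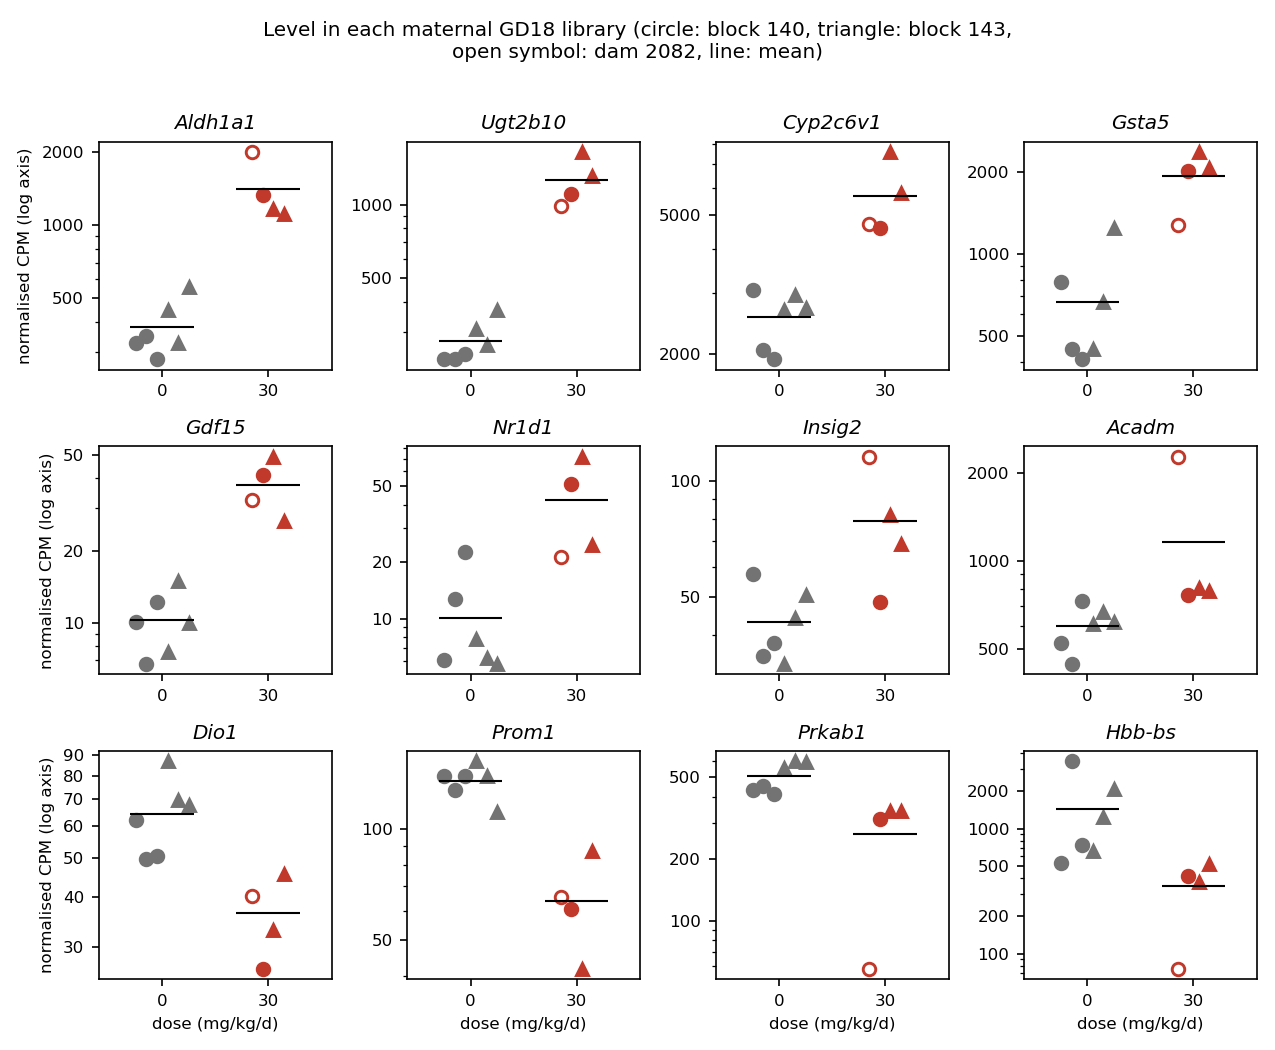
Normalised CPM (log axis) of 12 called genes in each of the 6 control and 4 treated libraries. In the top row and in Gdf15, Dio1 and Prom1 all treated dams lie beyond all controls, while Acadm and Prkab1 show dam 2082 (open symbol) far from the other 3 treated dams.

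Other phase I enzymes moved in both directions. Cyp2c6v1, a hepatic P450 that is also on the CAR and PXR list, held 1931 to 3059 CPM in the controls (median 2692) and 4715, 4601, 7580.2 and 5772 CPM in the treated dams. It rose by 1.13 ± 0.18 (adjusted p 0.000571) without overlap. Cyp2c11, which in rat is the male-specific P450 and is normally scarce in females, held 1.72 to 6.12 CPM in the controls (median 2.55) and 7.71, 14.3, 12.5 and 18.0 CPM in the treated dams. It rose by 2.00 ± 0.45 (adjusted p 0.0383) from a low level, and was the 1 member called of 26 P450s of other families, where Cyp2u1 −0.94 ± 0.27 (adjusted p 0.134) came next. Ces2h, a carboxylesterase that splits esters, held 23.4 to 35.1 CPM in the controls (median 27.1) and 57.4, 57.2, 57.5 and 39.0 CPM in the treated dams. The rise of 0.89 ± 0.16 (adjusted p 0.00427) was the second in the hydrolase list, where Ephx1 was the other, of 20 tested with a median of 0.39. Fmo1, a flavin monooxygenase that oxidises amines and sulfides, fell in contrast. It held 9.37 to 24.2 CPM in the controls (median 15.8) and 3.73, 9.36, 1.36 and 3.60 CPM in the treated dams, with all treated dams below all controls, though dam 2083 nearly met the lowest control. The fall was by 1.89 ± 0.42 (adjusted p 0.0325), and without dam 2082 the change was −1.69 (adjusted p 0.155). It was the 1 call among 15 oxidases, in whose list Por 1.33 ± 0.35 (adjusted p 0.0877), the electron donor of P450s, followed with no overlap. Slco1a4, a carrier of organic anions, was the 1 call of 15 transporters, with Slc22a5 0.70 ± 0.25 (adjusted p 0.286), the carnitine carrier, next. Ugt1a6 was also the 1 call of 5 AhR targets; Nqo1 0.79 ± 0.23 (adjusted p 0.147) and Cyp1a2 −0.24 ± 0.21 (adjusted p 0.751) were not called. Leaving out 1 library at a time ended the calls of Cyp2c6v1 in 1 (adjusted p up to 0.0507 without dam 2127), Ces2h in 1 (adjusted p up to 0.0883 without dam 2127), Cyp2c11 in 6 (adjusted p up to 0.146 without dam 2128) and Fmo1 in 6 (adjusted p up to 0.155 without dam 2082).

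Aldh1a1, which oxidises retinaldehyde to retinoic acid and also clears reactive aldehydes, held 280.1 to 557 CPM in the controls (median 338) and 1991, 1329, 1166 and 1112 CPM in the treated dams. The groups were far apart. It rose by 1.87 ± 0.21 (adjusted p 2.19e-06), by 2.33 within block 140 and 1.37 within block 143, and was called in all 10 fits that left out 1 library. It was the 1 call of 12 retinoid genes (median 0.01), where Rarb −0.56 ± 0.21 (adjusted p 0.324), a retinoic acid receptor, was next. Among 46 aldehyde, short-chain and aldo-keto dehydrogenases Aldh1a1 and Dhrs7l1 rose, with a median of 0.08, close to that of all genes. Aldh1a1 is also a pericentral hepatocyte marker, and was the 1 call of 12 such markers, whose summed level was 2321 to 3400 CPM in controls and 2872 to 5516 CPM in treated dams, Aldh1a1 included. Glul, a defining pericentral marker, was not called, at 0.01 ± 0.17 (adjusted p 0.992). Of the 12 pericentral markers 8 were above 0 and 4 below (median 0.19, and 0.02 without dam 2082). Of 10 periportal markers none was called, with 4 above 0 and 6 below (median −0.23, and −0.29 without dam 2082). At an unadjusted p under 0.05, 2 pericentral markers were higher and 2 lower, and 1 periportal marker was higher and 5 lower. Over all 13783 genes these were 688 and 734. Zonal shifts were not tested further.

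Of 25 tested genes of mitochondrial fatty acid oxidation 4 rose and none fell. The other 21 were not called, and 22 of the 25 had a fold change above 1, with a median log2 fold change of 0.62, which was 0.41 without dam 2082. Hadha, the alpha subunit of the trifunctional protein, held 209 to 266 CPM in the controls (median 263) and 623, 331, 395 and 383 CPM in the treated dams. It rose by 0.78 ± 0.14 (adjusted p 0.0023), with no overlap. Acadm, the medium-chain dehydrogenase, held 442 to 729 CPM in the controls (median 612) and 2278, 766, 809 and 787 CPM in the treated dams. Dam 2082 was far above the rest, while the other 3 treated dams lay just over the highest control. The rise of 0.92 ± 0.21 (adjusted p 0.0438) became 0.41 (adjusted p 0.472) without dam 2082, and its adjusted p was 0.0509 with the receptor covariate. Eci1, which moves double bonds during oxidation, and Acot2, a thioesterase of the matrix, were the other calls, at 2.09 ± 0.29 (adjusted p 7.97e-05) and 2.22 ± 0.24 (adjusted p 1.35e-06). Not called were Hadhb 0.84 ± 0.20 (adjusted p 0.0503), the partner subunit of Hadha, Decr1 0.78 ± 0.20 (adjusted p 0.0754) and Acaa2 0.64 ± 0.17 (adjusted p 0.0877). Pdk4, which blocks pyruvate oxidation and is a PPAR-alpha target, held 8.48 to 29.6 CPM in the controls (median 13.1) and 30.7, 18.9, 63.8 and 34.9 CPM in the treated dams. It rose by 1.35 ± 0.30 (adjusted p 0.0308), and stood at 1.28 (adjusted p 0.0944) without dam 2082. Dam 2083 was inside the pooled control range but above the controls of its own block (8.73, 8.48 and 13.9 CPM). With no block term the adjusted p of Pdk4 was 0.238. Of 27 PPAR-alpha targets 4 rose and 1 fell (median 0.29), and 3 and 1 without dam 2082. The faller was Rgn, regucalcin, an enzyme of vitamin C synthesis, at 51.5 to 107 CPM in the controls (median 71.9) and 25.6, 38.5, 31.2 and 54.5 CPM in the treated dams. It fell by 0.98 ± 0.18 (adjusted p 0.00482), with dam 2128 inside the control range. Gulo −1.28 ± 0.32 (adjusted p 0.0667), the last enzyme of that synthesis, was not called and is named after its value was seen. Neither Cpt1a (0.40 ± 0.31, adjusted p 0.706) nor Cyp4a2 (−0.28 ± 0.23, adjusted p 0.73) was called, both of them usual PPAR-alpha readouts. Among fits without 1 library, calls were lost for Acadm in 9 (adjusted p up to 0.472 without dam 2082), Pdk4 in 6 (adjusted p up to 0.191 without dam 2127) and Rgn in 1 (adjusted p up to 0.0686 without dam 2127).

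In peroxisomes 4 of 39 tested members rose and none fell, with a median of 0.17; without dam 2082, 5 rose. Acot4, which frees dicarboxylic acids from CoA, held 12.1 to 23.5 CPM in the controls (median 13.7) and 26.3, 36.0, 53.9 and 71.4 CPM in the treated dams. It rose by 1.47 ± 0.27 (adjusted p 0.00509), and block 143 held the higher values. Acox2, the oxidase of branched chains and bile acid precursors, held 23.8 to 47.8 CPM in the controls (median 38.7) and 69.5, 63.9, 74.9 and 84.5 CPM in the treated dams. It rose by 0.90 ± 0.19 (adjusted p 0.0175) with no overlap. Pex5, the import receptor of peroxisomal enzymes, was not called at 1.17 ± 0.29 (adjusted p 0.0619) and read 40.2 CPM in dam 2082 against 12.4, 14.3 and 10.8 CPM in the other treated dams. Hsdl2, a short-chain dehydrogenase found in peroxisomes but in none of the lists, held 22.9 to 45.9 CPM in the controls (median 35.6) and 60.2, 38.8, 122 and 73.4 CPM in the treated dams. The rise of 1.05 ± 0.17 (adjusted p 0.000959) came with dam 2083 inside the pooled control range. That dam was above the controls of its own block (33.7, 22.9 and 25.2 CPM). With no block term the adjusted p of Hsdl2 was 0.107. The pathways that take up the products of fatty acid oxidation had no called gene, where 0.457% of all genes were called. At that share, lists of these sizes can hold none. Ketone body genes had no call among 8 (median 0.11), with Slc16a7 0.58 ± 0.24 (adjusted p 0.389), a monocarboxylate carrier, and Bdh1 0.29 ± 0.15 (adjusted p 0.529) first. The citric acid cycle had none among 15 (median 0.16, and 0.08 without dam 2082), with Fh 0.38 ± 0.11 (adjusted p 0.139) and Dld 0.67 ± 0.22 (adjusted p 0.225) first. Its log2 fold changes were above 0 for 12 and below for 3, where 7662 of all 13783 genes were above. The respiratory chain had no call among 34 (median −0.15, and −0.05 without dam 2082), with Uqcrfs1 1.25 ± 0.37 (adjusted p 0.157) and Cox7b −0.44 ± 0.14 (adjusted p 0.225) first. At an unadjusted p under 0.05, the citric acid cycle had 4 higher and 0 lower and the respiratory chain 2 and 6. Over all genes tested these were 688 and 734. Without dam 2082, Slc16a7 and Uqcrfs1 were at −0.04 and −0.08. With 1 library left out, the call was lost for Acox2 in 2 (adjusted p up to 0.128 without dam 2128) and Hsdl2 in 1 (adjusted p up to 0.0832 without dam 2127).

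**Figure D3:**
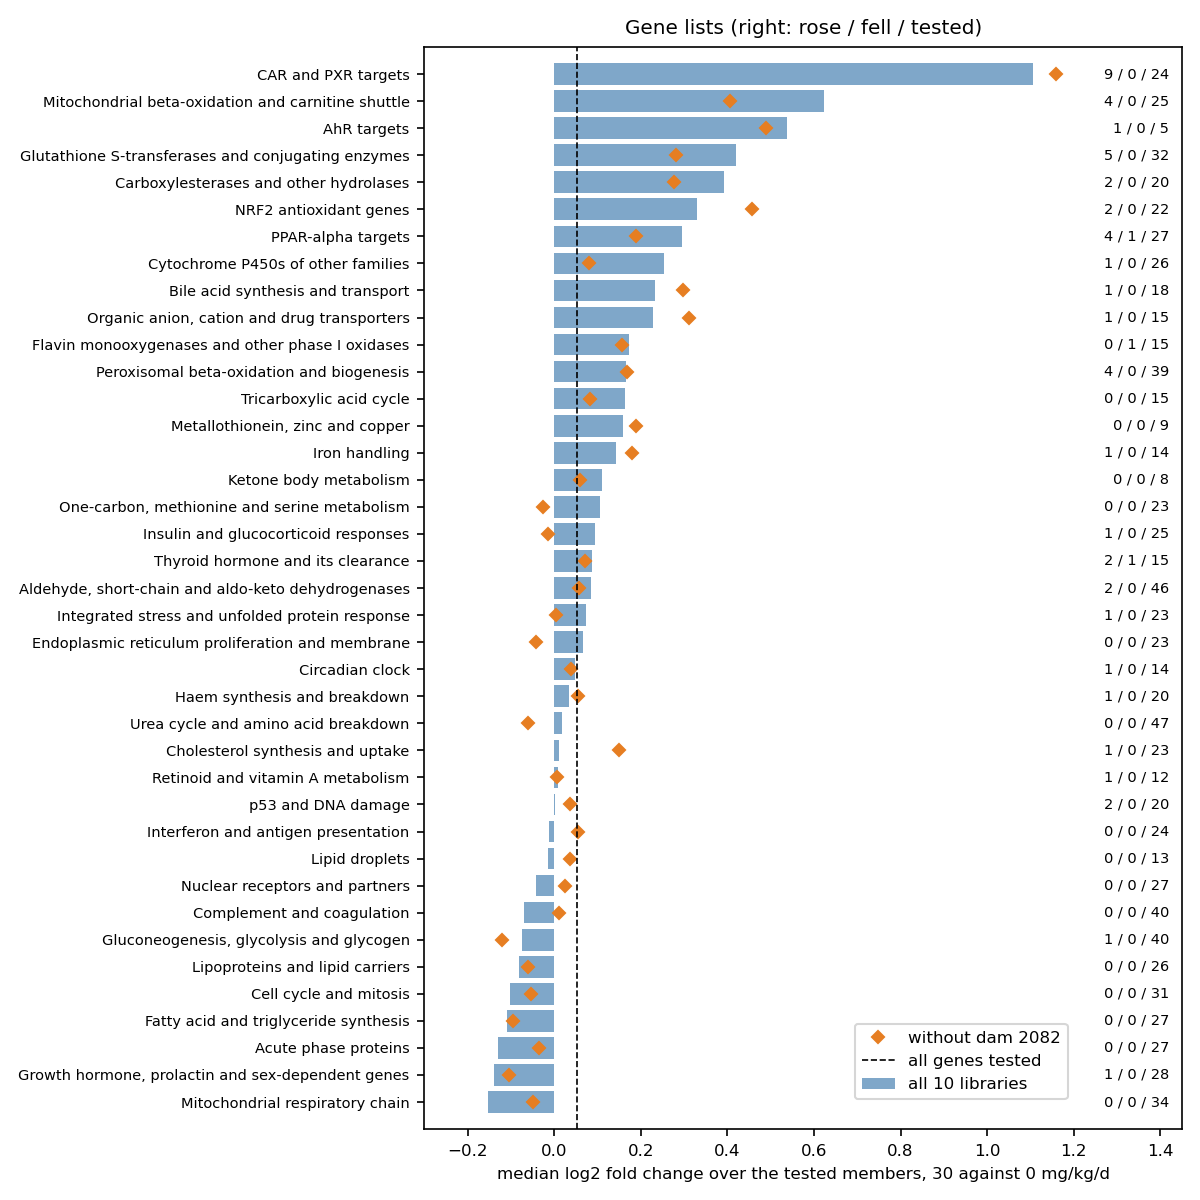
Median log2 fold change (30 against 0 mg/kg/d) over the tested members of each of 39 gene lists. Bars hold all 10 compared libraries, within the fit of 30, and diamonds leave out dam 2082. The dashed line is the median of all genes (0.05). Numbers on the right give members that rose, fell and were tested; CAR and PXR targets lead at 1.10 and mitochondrial oxidation follows at 0.62, or 0.41 without that dam.

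Lipid synthesis and transport held few calls, where 0.457% of all genes were called. Insig2, which keeps the sterol regulator SCAP-SREBP in the endoplasmic reticulum, held 33.6 to 57.5 CPM in the controls (median 41.3) and 116, 48.7, 81.5 and 68.9 CPM in the treated dams. It rose by 0.87 ± 0.19 (adjusted p 0.0252), with dam 2083 inside the control range, and stood at 0.58 (adjusted p 0.22) without dam 2082. The other 22 cholesterol genes were not called (list median 0.01), with Mvk 0.59 ± 0.21 (adjusted p 0.273) next. Marchf6, an endoplasmic reticulum ubiquitin ligase that degrades a cholesterol-synthesis enzyme, held 10.3 to 12.5 CPM in the controls (median 11.1) and 22.6, 18.2, 20.1 and 11.4 CPM in the treated dams. The rise of 0.68 ± 0.15 (adjusted p 0.0234) did not extend to dam 2128, which lay within the controls, and without dam 2082 it was 0.57 (adjusted p 0.117). Of 27 fatty acid and triglyceride synthesis genes none was called and 17 had a fold change below 1 (median −0.11). Elovl5 −0.69 ± 0.20 (adjusted p 0.157), a fatty acid elongase, lay below all controls in all 4 treated dams, and Thrsp −0.93 ± 0.33 (adjusted p 0.299), a regulator of lipogenesis, overlapped. Lipoproteins (26 tested) had no call, with Apoa2 0.51 ± 0.16 (adjusted p 0.217) first, and lipid droplet genes (13 tested) none, with Hilpda 1.33 ± 0.32 (adjusted p 0.0542) and Hsd17b13 −0.44 ± 0.11 (adjusted p 0.0877) first. Bile acid genes had the single call of Acox2 among 18, with a median of 0.23; Slc27a5 0.94 ± 0.36 (adjusted p 0.32) was next. In the fits that each left out 1 library, calls were lost for Insig2 in 7 (adjusted p up to 0.22 without dam 2082) and Marchf6 in 4 (adjusted p up to 0.2 without dam 2127).

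Genes that handle thyroid hormone moved in 2 directions. Dio1, the deiodinase that converts thyroxine to its active form and clears iodothyronines, held 49.6 to 86.8 CPM in the controls (median 64.9) and 40.2, 26.5, 33.1 and 45.7 CPM in the treated dams. All treated dams lay below all controls, and it fell by 0.81 ± 0.15 (adjusted p 0.00732), by 0.75 within block 140 and by 0.92 within block 143. Without dam 2082 the change was −0.95 (adjusted p 0.00143). Ugt1a6 and Slco1a4, which conjugate and carry thyroxine, rose as given above. The list of 15 thus had 2 rises and 1 fall, with a median of 0.09, close to all genes. Thrsp −0.93 ± 0.33 (adjusted p 0.299), a thyroid hormone-responsive gene, was not called. Slco1a4 held 83.2 to 139 CPM in the controls (median 102) and 259, 229, 352 and 356 CPM in the treated dams, its call held in all 10 fits that left out 1 library, and that of Dio1 ended in 1 (adjusted p up to 0.0803 without dam 2127).

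Among stress genes the circulating factor Gdf15, a cytokine that tissues release under mitochondrial and other stress, held 6.76 to 14.9 CPM in the controls (median 10.1) and 32.6, 41.3, 49.1 and 26.6 CPM in the treated dams. Even the lowest treated dam was above the highest control. It rose by 1.86 ± 0.31 (adjusted p 0.00126), by 1.85 within block 140 and 1.81 within block 143, and the call held in all 10 fits that left out 1 library. It was the 1 call among 23 genes of the integrated stress and unfolded protein responses (median 0.07), where Xbp1 0.84 ± 0.30 (adjusted p 0.301) was next. Gadd45a, a growth-arrest gene, held 19.7 to 30.6 CPM in the controls (median 26.1) and 26.8, 34.6, 79.2 and 46.2 CPM in the treated dams, with dam 2082 inside the control range. It rose by 0.80 ± 0.18 (adjusted p 0.0385). These were the 2 calls among 20 p53 and DNA damage genes (median 0.00). Cell cycle genes had no call among 31 (median −0.10), with Tyms −0.55 ± 0.21 (adjusted p 0.33) and Aurkb −0.72 ± 0.37 (adjusted p 0.507) first. Zwint, a kinetochore protein in none of the lists, held 64.0 to 84.2 CPM in the controls (median 75.0) and 123, 100.3, 128 and 123 CPM in the treated dams. Its small rise of 0.64 ± 0.09 (adjusted p 0.000157) was called in every fit that left out 1 library. With the 10 compared libraries alone it was not called (adjusted p 0.109). No gene of endoplasmic reticulum membranes was called among 23, with Pgrmc1 0.47 ± 0.12 (adjusted p 0.0679) first and Por next. NRF2 genes had 2 rises among 22, Ephx1 and Blvrb (median 0.33), and 1 without dam 2082. Metallothionein, zinc and copper genes had none among 9, with Mt2A 1.55 ± 0.64 (adjusted p 0.378) and Slc39a4 0.55 ± 0.27 (adjusted p 0.5) first. The call of Gadd45a ended in 7 of the 10 fits (adjusted p up to 0.323 without dam 2127).

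Nr1d1, which encodes the clock repressor REV-ERB alpha, held 5.74 to 22.4 CPM in the controls (median 6.98) and 21.1, 51.4, 71.8 and 24.6 CPM in the treated dams. Dam 2082 was below the highest control, and the other 3 treated dams were above it. It rose by 2.04 ± 0.43 (adjusted p 0.0223), by 1.31 within block 140 and 2.88 within block 143, and was the 1 call among 14 clock genes (median 0.05). Bhlhe40 −0.75 ± 0.23 (adjusted p 0.184) was next, not called. Of the 14 clock genes 4 were lower and 1 higher at an unadjusted p under 0.05, where 734 and 688 of all 13783 genes were. Time of sampling was not tested. Glucose genes had 1 call among 40, Pdk4, with a median of −0.07 and Slc2a2 −0.66 ± 0.17 (adjusted p 0.0753), the hepatic glucose carrier, next. Insulin and glucocorticoid response genes had Gadd45a alone among 25, followed by Hsd11b1 −1.05 ± 0.34 (adjusted p 0.208), which regenerates glucocorticoid. Growth hormone and sex-dependent genes had Cyp2c11 alone among 28 (median −0.14). Nuclear receptors had no call among 27, with Nr1i3 1.78 ± 0.44 (adjusted p 0.0612), which is CAR itself, and Ahr 0.57 ± 0.21 (adjusted p 0.288) first. Prkab1, the beta 1 subunit of the energy sensor AMPK, held 414 to 597 CPM in the controls (median 505) and 58.2, 313, 343 and 341 CPM in the treated dams. All treated dams were below all controls and dam 2082 was far below the rest. It fell by 0.98 ± 0.23 (adjusted p 0.0481), and without dam 2082 the change was smaller but better resolved, at −0.65 (adjusted p 0.000634). With the receptor covariate its adjusted p was 0.0535. Leaving out 1 library at a time ended the calls of Nr1d1 in 5 (adjusted p up to 0.156 without dam 2127) and Prkab1 in 8 (adjusted p up to 0.109 without dam 2127).

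The most abundant haemoglobin transcripts were lower in treated dams. The 4 called falls among 13 erythroid markers were Hbb-bs and its overlapping model LOC100134871, and Hba-a2 and Hba-a3, with a list median of −1.29. Without dam 2082 none of the 13 was called, and the median was −1.38. Hbb-bs held 534 to 3437 CPM in the controls (median 982) and 75.9, 417, 373 and 521 CPM in the treated dams. The groups did not overlap, but the controls spanned a wide range and dam 2082 was far below the other treated dams. It fell by 2.08 ± 0.49 (adjusted p 0.0481), and stood at −1.72 (adjusted p 0.155) without dam 2082 and at −1.55 without control dam 2070. Hba-a3 held 52.4 to 234 CPM in the controls (median 93.9) and 36.9, 43.1, 38.3 and 24.6 CPM in the treated dams, and fell by 1.74 ± 0.40 (adjusted p 0.0385). Without dam 2082 Hba-a3 stood at −1.74 (adjusted p 0.104), Hba-a2 at −1.53 (adjusted p 0.193) and LOC100134871 at −1.73 (adjusted p 0.155). With the receptor covariate the calls of Hbb-bs, LOC100134871 and Hba-a2 ended (adjusted p 0.0579, 0.0579 and 0.0565). Not called were Hbb −1.30 ± 0.36 (adjusted p 0.117), Alas2 −1.86 ± 0.54 (adjusted p 0.139), the erythroid haem synthase, and Slc4a1 −1.29 ± 0.55 (adjusted p 0.397), the red cell anion exchanger. Of the 13 markers 10 had a log2 fold change below 0 and 3 above 0, up to 0.89. In CPM without TMM scaling, Hbe1, a globin of low level, averaged 1.66 in controls and 3.70 in treated dams. Tfrc, also on the list, averaged 56.0 and 67.6. Haemoglobin counts made up 0.173% to 0.916% of all counts in controls and 0.116% to 0.164% in treated dams, and the summed erythroid markers 1840 to 9293 CPM and 1205 to 1724 CPM. The part of blood left in the tissue was not tested. Outside red cells, haem and iron genes had 1 call each. Blvrb, a biliverdin reductase, was the 1 of 20 haem genes, at 7.77 to 16.7 CPM in the controls (median 9.32) and 20.6, 14.8, 20.1 and 16.1 CPM in the treated dams, a rise of 0.79 ± 0.17 (adjusted p 0.0283). Dams 2083 and 2128 lay inside the pooled control range, though dam 2083 was above the controls of its own block (9.52, 7.77 and 9.11 CPM). Without dam 2082 the rise was 0.62 (adjusted p 0.169). With all libraries and no block term the adjusted p of Blvrb was 0.227. Alas1 1.00 ± 0.28 (adjusted p 0.117), the first step of hepatic haem synthesis, was not called, with groups that did not overlap. Aco1, which is cytosolic aconitase or, without its iron cluster, the iron regulatory protein, was the 1 of 14 iron genes, at 34.1 to 57.0 CPM in the controls (median 47.3) and 107, 62.3, 71.5 and 56.5 CPM in the treated dams. It rose by 0.72 ± 0.16 (adjusted p 0.0385), with dam 2128 just inside the control range, and stood at 0.45 (adjusted p 0.272) without dam 2082; Tfr2 0.45 ± 0.20 (adjusted p 0.415) was next. Among fits without 1 library, calls were lost for Hbb-bs in 6 (adjusted p up to 0.155 without dam 2082), LOC100134871 in 6 (adjusted p up to 0.155 without dam 2082), Hba-a2 in 6 (adjusted p up to 0.193 without dam 2082), Hba-a3 in 6 (adjusted p up to 0.142 without dam 2070), Blvrb in 4 (adjusted p up to 0.169 without dam 2082) and Aco1 in 7 (adjusted p up to 0.272 without dam 2082).

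Plasma protein and immune lists had no called member, where 0.457% of all genes were called. Among 27 acute phase genes (median −0.13) Serpina1 −0.42 ± 0.13 (adjusted p 0.185) and A2m −1.49 ± 0.54 (adjusted p 0.303) came first, and A2m was below all controls in all treated dams. Among 40 complement and coagulation genes F13b −0.47 ± 0.15 (adjusted p 0.203) and Serpinf2 1.73 ± 0.56 (adjusted p 0.222) came first, but Serpinf2 was at −0.61 without dam 2082. Interferon and antigen presentation genes (24 tested) were led by Irf1 −0.44 ± 0.17 (adjusted p 0.32) and Isg15 0.58 ± 0.25 (adjusted p 0.402). Urea cycle and amino acid genes (47 tested) had Ass1 −0.80 ± 0.21 (adjusted p 0.0967), the argininosuccinate synthase, with all treated dams below all controls, and Bckdk −0.97 ± 0.33 (adjusted p 0.253). One-carbon genes (23 tested) had Bhmt −0.74 ± 0.26 (adjusted p 0.273) and Tyms. The other cell type markers (biliary, stellate, endothelial, macrophage, neutrophil, lymphoid, placental, pancreatic and adipose) had no call. Their summed levels overlapped between the groups, with the cholangiocyte sum at 154 CPM in dam 2082 and 75.9 to 109 CPM in the other 9 libraries.

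Of the 63 called genes 24 were in none of the lists, 16 rises and 8 falls. Several rises encode mitochondrial proteins. Ethe1, the dioxygenase that detoxifies sulfide, held 31.0 to 50.9 CPM in the controls (median 43.0) and 67.4, 122, 73.8 and 61.7 CPM in the treated dams, and rose by 0.94 ± 0.20 (adjusted p 0.0222) without overlap. Lactb2, an RNA-cleaving enzyme, rose by 0.63 ± 0.13 (adjusted p 0.0175), also without overlap, from 71.3 ± 6.22 to 111 ± 14.0 CPM (mean ± SD). Clpx, the unfoldase of a matrix protease, held 133 to 205 CPM in the controls (median 167) and 867, 198, 227 and 195 CPM in the treated dams. That rise of 1.10 ± 0.26 (adjusted p 0.0485) rested on dam 2082, without which it was 0.29 (adjusted p 0.744), and its adjusted p was 0.0674 with the receptor covariate. Prdx5, a peroxiredoxin, rose by 0.48 ± 0.11 (adjusted p 0.0438) and stood at 0.33 (adjusted p 0.197) without that dam. The same held for Mvb12a, an ESCRT subunit, at 1.24 ± 0.29 (adjusted p 0.0438) and 0.61 (adjusted p 0.607), for Pir, an iron-binding protein, at 1.46 ± 0.35 (adjusted p 0.0481) and 1.27 (adjusted p 0.206), for Clu, the chaperone clusterin, at 0.51 ± 0.11 (adjusted p 0.0383) and 0.37 (adjusted p 0.155), and for Anxa11, an annexin, at 0.54 ± 0.12 (adjusted p 0.0403) and 0.40 (adjusted p 0.206). Tex36 and Gjc3, a connexin, rose from low levels, from 1.90 ± 0.965 to 6.27 ± 2.73 CPM and 3.74 ± 1.38 to 8.00 ± 1.32 CPM, by 1.67 ± 0.35 (adjusted p 0.0223) and 1.09 ± 0.25 (adjusted p 0.0383). The unnamed models LOC100360087 and AABR07021930.1 rose by 0.55 ± 0.13 (adjusted p 0.0385) and 1.4 ± 0.30 (adjusted p 0.0283). Without dam 2082 Gjc3 stood at 1.11 (adjusted p 0.0732) and LOC100360087 at 0.38 (adjusted p 0.197). With 1 library left out, the call was lost for Ethe1 in 5 (adjusted p up to 0.13 without dam 2127), Lactb2 in 3 (adjusted p up to 0.156 without dam 2127), Clpx in 8 (adjusted p up to 0.744 without dam 2082), Prdx5 in 9 (adjusted p up to 0.197 without dam 2082), Mvb12a in 7 (adjusted p up to 0.607 without dam 2082), Pir in 9 (adjusted p up to 0.206 without dam 2082), Clu in 7 (adjusted p up to 0.272 without dam 2127), Anxa11 in 8 (adjusted p up to 0.211 without dam 2128), Tex36 in 3 (adjusted p up to 0.189 without dam 2127), Gjc3 in 8 (adjusted p up to 0.15 without dam 2127), LOC100360087 in 8 (adjusted p up to 0.197 without dam 2082) and AABR07021930.1 in 5 (adjusted p up to 0.175 without dam 2127).

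The falls outside the lists were small to moderate. Prom1, the membrane glycoprotein prominin 1 (CD133), held 111 to 153 CPM in the controls (median 139) and 65.6, 60.9, 41.9 and 87.2 CPM in the treated dams. The groups were well separated, the fall was 1.08 ± 0.22 (adjusted p 0.0175), and it was −1.11 (adjusted p 0.0362) without dam 2082. Vkorc1, the vitamin K epoxide reductase that warfarin blocks, held 31.0 to 45.3 CPM in the controls (median 33.5) and 11.9, 23.3, 25.4 and 21.0 CPM in the treated dams. It fell by 0.79 ± 0.18 (adjusted p 0.0385) without overlap, and stood at −0.56 (adjusted p 0.155) without dam 2082. Cbx6, a Polycomb protein, fell by 0.96 ± 0.20 (adjusted p 0.0175), from 13 ± 1.58 to 7.0 ± 2.48 CPM. Tmc3, a transmembrane channel-like protein, fell by 1.02 ± 0.21 (adjusted p 0.0208), from 19.3 ± 3.54 to 9.72 ± 4.36 CPM. Gpc4, a glypican, held 72.5 to 97 CPM in the controls (median 83.2) and 34.4, 50.7, 75.8 and 69.5 CPM in the treated dams, so that dam 2127 met the lower control values, and fell by 0.56 ± 0.13 (adjusted p 0.039). Hddc3 and Sh3bgrl fell by 0.49 ± 0.11 (adjusted p 0.0283) and 0.51 ± 0.12 (adjusted p 0.0405). Without dam 2082 none of Cbx6, Tmc3, Gpc4, Hddc3 and Sh3bgrl was called, with changes of −0.73, −0.80, −0.39, −0.44 and −0.46 and adjusted p from 0.0732 to 0.127. In the fits that each left out 1 library, calls were lost for Prom1 in 1 (adjusted p up to 0.0761 without dam 2127), Vkorc1 in 7 (adjusted p up to 0.155 without dam 2082), Cbx6 in 1 (adjusted p up to 0.0927 without dam 2082), Tmc3 in 3 (adjusted p up to 0.12 without dam 2127), Gpc4 in 10 (adjusted p up to 0.127 without dam 2082), Hddc3 in 5 (adjusted p up to 0.13 without dam 2127) and Sh3bgrl in 6 (adjusted p up to 0.125 without dam 2070).

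Some called genes are neighbours on rn6, within 500 kb of each other. Acot2, Acot1 and Acot4 lie on chromosome 6 from 107460668 to 107522953, Ugt2a3 and Ugt2b10 on chromosome 14 from 22192970 to 22825445, Gsta5 and Gsta2 on chromosome 8 from 85553734 to 85645719, and Ephx1 and the model AABR07021930.1 on chromosome 13 from 99271366 to 99346544. Each of these sets rose together. Of the 30 maternal GD18 libraries, counts were fractional in 26 for Ephx1 and for AABR07021930.1, in 30 for Gsta5 and in 29 for Gsta2. Whether reads divided between neighbours made part of these joint rises was not tested. Among single genes, Aldh1a1 lies on chromosome 1 from 238222521 to 238264331, Gdf15 on chromosome 16 from 20555395 to 20557979, Dio1 on chromosome 5 from 126895286 to 126911521 and Nr1d1 on chromosome 10 from 86683875 to 86690816. The file gives whole gene intervals, and the probe sites within them are not given in the sources used here.

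Past the called genes, 41 more lay above and 61 more below all controls in all treated dams, counting genes whose mean log2 CPM was 1 or more. Among those of smallest p above were Mlycd, which removes malonyl-CoA, at 0.64 ± 0.16 (adjusted p 0.0597), Rwdd1 at 0.59 ± 0.14 (adjusted p 0.0612), Pex5, given above, and Chp1 at 0.79 ± 0.20 (adjusted p 0.0672). Below were the models AABR07032392.1, LOC100359583 and AABR07034632.1, at −1.0 ± 0.24 (adjusted p 0.0557), −0.51 ± 0.13 (adjusted p 0.0754) and −0.76 ± 0.19 (adjusted p 0.0754), with Prdx4, a peroxiredoxin of the secretory pathway, at −0.42 ± 0.11 (adjusted p 0.086) and Ky at −2.32 ± 0.61 (adjusted p 0.0877). Ky had the widest gap of these, with 17.0 to 59.4 CPM in controls and 4.11 to 10.2 CPM in treated dams. None of these passed the adjusted threshold. Over all 13783 genes tested, called or not and at any level, 0.588% lay above and 0.544% below all controls in this way. How many would do so by chance was not tested.

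The lower doses (4 dams each) share the 6 control dams with the 30 mg/kg/d group, so their values are set side by side only. At 10, 3, 1, 0.3 and 0.1 mg/kg/d, Aldh1a1 stood at log2 fold changes of 0.69, 0.48, −0.03, −0.20 and −0.05, and Ugt2b10 at 1.21, 1.10, 0.40, 0.26 and 0.81. Gdf15 stood at 0.25, 0.75, −0.22, −0.85 and −0.29, Nr1d1 at 0.20, 0.75, −0.04, 0.54 and −0.35 and Dio1 at −0.03, −0.02, 0.13, −0.08 and 0.22. None of these was called below 30 mg/kg/d. Hbb-bs stood at −0.72, −0.75, −0.54, −0.07 and −1.13, lower at 0.1 mg/kg/d than at the 4 doses above it up to 10 mg/kg/d. Of the 63 genes 4 were called at 10 mg/kg/d, namely Cyp2b1, Cyp2b2, Cyp3a23/3a1 and the model AABR07035374.1, and none at 3 mg/kg/d or less. Counts of these 4 are fractional in all 30 maternal GD18 libraries, and the model lies within the interval of Cyp3a23/3a1.

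**Figure D4:**
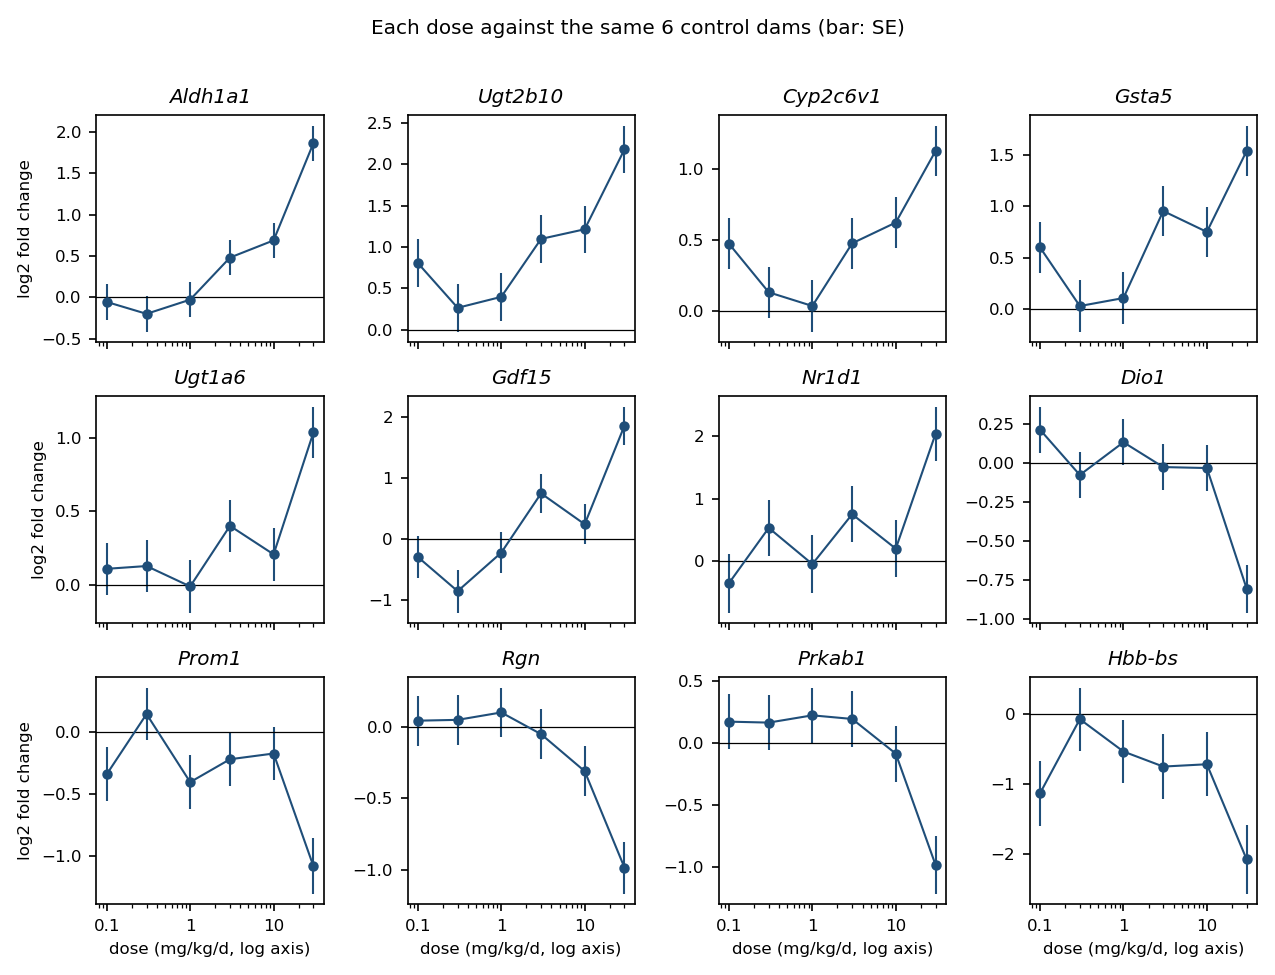
Log2 fold change of each dose against the same 6 control dams (points, SE bars) for 12 called genes, with dose on a log axis. Values at 30 mg/kg/d are the farthest from 0 in all 12 panels, a description only, since the contrast at that dose chose these genes. Hbb-bs is also low at 0.1 mg/kg/d.

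Dams dosed from GD17 to GD21 have controls of their own (3 treated, 3 control, block 144). Their age is GD21 in the protocol and GD20 in the age label, and GD21 is used here. Age, dosing days and block cannot be told apart between the sets. In a joint fit of all 45 maternal libraries, 46 of the 48 rises were also above 0 at GD21 and 25 were called there, where 0.226% of all genes were called higher. All 15 falls were below 0 and 1, Dio1, was called, where 0.041% of all genes were called lower. A test of the difference between ages called none of 14621 genes (0%) with edgeR, 622 having an unadjusted p under 0.05, and none with DESeq2. At GD18 and GD21 the joint fit gave 1.87 ± 0.21 and 2.27 ± 0.28 for Aldh1a1, 1.86 ± 0.33 and 1.78 ± 0.44 for Gdf15, 2.04 ± 0.48 and 3.06 ± 0.66 for Nr1d1 and −1.08 ± 0.24 and −1.12 ± 0.30 for Prom1. Dio1 read −0.81 ± 0.22 and −1.66 ± 0.28, and in this joint fit its GD18 change missed the threshold (adjusted p 0.0819). Hbb-bs read −2.08 ± 0.48 and −0.15 ± 0.56, with control means of 1362 and 385 CPM at the earlier and later age. The 2 rises not above 0 at GD21 were Marchf6 (−0.05 ± 0.21) and Mvb12a (−0.01 ± 0.43), which were also among the calls that ended without dam 2082.

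**Figure D5:**
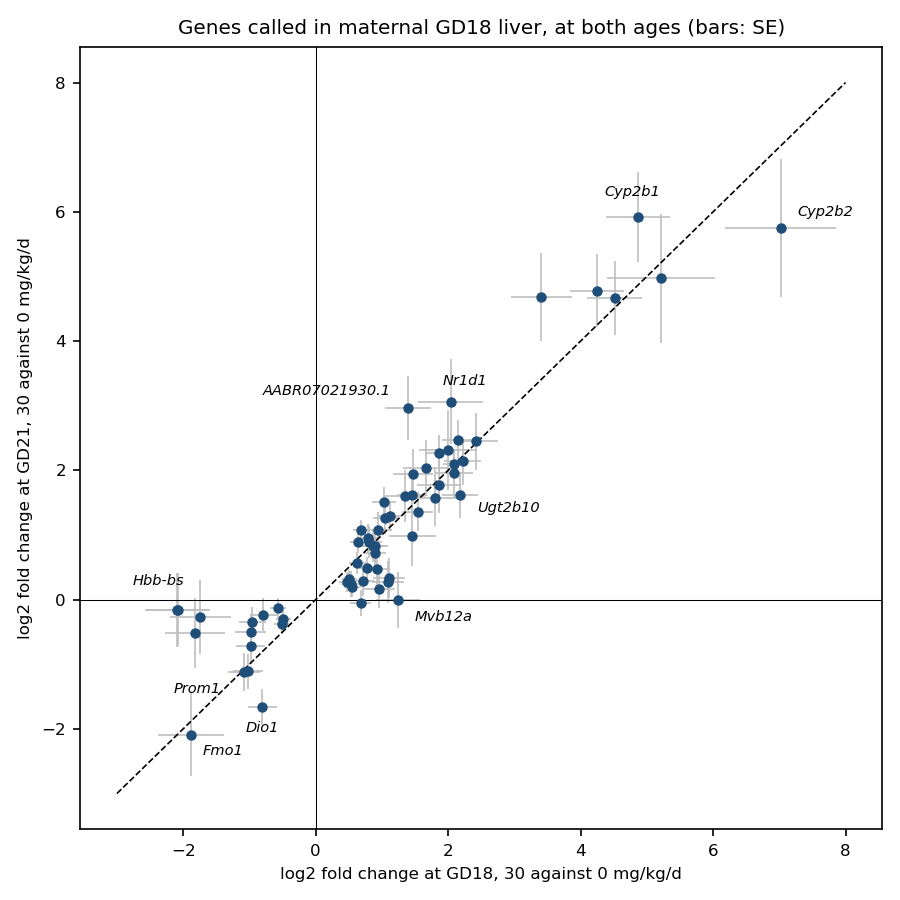
Log2 fold change (30 against 0 mg/kg/d) of the 63 called genes in maternal liver at GD18 (x axis) and GD21 (y axis) from the joint fit, with SE bars and the line of equality. Of the 48 rises, 46 lie above 0 at GD21. Their distance from the line varies, with Clpx, Ugt2a3, Gjc3, Mvb12a and Marchf6 below it and Dhrs7l1 and AABR07021930.1 above it. No difference between ages was called. Hbb-bs lies near 0 at GD21 and Dio1 below the line.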

How the data were processed

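Liver RNA of 90 maternal and fetal libraries was measured by TempO-Seq, sequenced as single reads of 50 bases, and the 10 libraries compared here are separate dams. The authors deposited estimated counts per gene, 6.37% of which are not whole in these libraries (tolerance 0.01) and were rounded. STAR 2.7.3a, Partek and rn6 are named per the submitters' processing notes, with no roles given. How reads were divided between similar genes is not given in the sources used here.

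Total counts ran from 3641732 to 6409501 per library, and the spread between dams exceeded counting error in each of 21 pairs (chi-square per degree of freedom 14.3 to 114). With R 4.3.3 and edgeR 4.0.16, genes were filtered with filterByExpr, scaled with TMM, and tested with the two-sided quasi-likelihood F test over all 30 maternal GD18 libraries with study block as a term. P-values were adjusted by Benjamini-Hochberg over 13783 genes, with a threshold of 0.05. The response at the later age was compared by an interaction term over 45 maternal libraries. The fit was tested on simulated data.

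Alternatives were DESeq2 1.42.0, other scaling, filters, designs and each library left out. The members and the 39 biology and 16 marker lists were chosen with earlier results of these data known. Named were all called genes, the 2 members of smallest p in each list, and the 5 near misses in each direction. Some genes named by this rule are not reported here, though counts include them.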

Additional observations from a re-analysis of the deposited data

Results flagged for a closer look

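Within the 6 control or 4 treated libraries, 1 library lay far from its group for 12 of the 126 groups of called genes examined. Chance marks about 1 in 20 groups, and no cause was tested. Values are normalised CPM.

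Treated dam 2082 was the distant library for 5 of them. Its Acadm level was 2280 CPM and its Clpx level 867 CPM, where the next treated dams held 809 and 227 CPM. It was low for Hba-a2 at 14.8 CPM (nearest 46.4 CPM), for LOC100134871 at 28.0 CPM (nearest 142 CPM) and for Prkab1 at 58.2 CPM (nearest 313 CPM). Among the other treated dams, Vnn1 was 207 CPM in dam 2127 (nearest 88.1 CPM), Ces2h was 39.0 CPM in dam 2128 (nearest 57.2 CPM) and Zwint was 100 CPM in dam 2083 (nearest 123 CPM).

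Among controls, dam 2070 was low for Hadha at 209 CPM (nearest 250 CPM) and high for Vkorc1 at 45.3 CPM (nearest 35.7 CPM). Cyp2b1 was 3.40 CPM in control dam 2114 (nearest 20.7 CPM), and Pir was 2.01 CPM in control dam 2116 (nearest 3.78 CPM).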

How the results depend on the processing

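The count of 63 called genes moved to 199 with DESeq2, to 30 with no term for study block, to 13 in block 140 alone, to 29 in block 143 alone and to 18 with the 10 libraries alone. It was 89 with RLE size factors, 46 with no filter on low counts, 58 with robust estimation, 66 with receptor genes removed and 60 with the receptor share as a covariate, 56 of them among the 63. Leaving out 1 library gave 23 to 124 calls: 23 without treated dam 2127, 124 without treated dam 2083, 38 without control dam 2070 and 40 without control dam 2114. DESeq2 called 62 of the 63, and 17 were called with the 10 libraries alone. The difference between ages had 0 calls under all alternatives run, each left-out library included. Signs reversed for 4 uncalled genes. In block 143 alone Slc16a7 was −0.069, Serpinf2 −0.75, Uqcrfs1 −0.32 and Dld −0.10, and with 1 library left out Slc16a7 ran from −0.038 (without dam 2082) to 0.75 (without dam 2083), Serpinf2 from −0.61 to 2.06 and Uqcrfs1 from −0.081 to 1.51, without the same dams. The cause of these changes was not tested. Counts per list without dam 2082 or 2127 were added after the data were seen. No paired analysis was possible because the groups compared share no dam.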

Other observations

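The 13 genes called only when dam 2082 was left out were chosen after the data were seen and are given as values. Nr1i3, the receptor CAR, moved from a log2 fold change of 1.78 (adjusted p 0.0612) to 2.09 (adjusted p 0.0167). Crat, which transfers acyl groups to carnitine, moved from 0.85 (adjusted p 0.0754) to 1.04 (adjusted p 0.0123), and Decr1, a reductase of unsaturated fatty acid oxidation, from 0.78 (adjusted p 0.0754) to 0.96 (adjusted p 0.0121). Cyb5a, the electron carrier cytochrome b5, moved from 0.42 (adjusted p 0.248) to 0.60 (adjusted p 0.00763). Cyp4f6 was −0.60 (adjusted p 0.437) with that dam and −1.18 (adjusted p 0.0143) without it. Without dam 2127, Chp1 and Hilpda were called, at 0.87 (adjusted p 0.036) and 1.47 (adjusted p 0.031).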
